A study of Mus musculus with 12 samples.

Results

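The genes described here are Klb and the FGF receptor genes Fgfr1, Fgfr2, Fgfr3 and Fgfr4, 5 of the 19938 genes that the arrays named through a probe set with a single symbol. They were picked by symbol, and where a gene had more than 1 probe set, the brightest by its mean log2 level over all arrays was to be used. Each of the 5 had 1 probe set, so that level made no choice. The family was proposed with results of these arrays in view, and the p-values below therefore measure differences against the spread between arrays and are not independent support for the choice. Total RNA of R1 mouse embryonic stem cells (ESCs) was hybridised to 12 Affymetrix gene arrays, 1 per sample. R1 is an established mouse ESC line, and all cells were grown on mitomycin-treated mouse embryonic fibroblasts, whose RNA can be part of each sample.

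The arrays fell into 5 groups. RA KD1 (4 arrays) were cells of the Smarcd1 knockdown line KD1 grown for 4 days without LIF and with 1 µM retinoic acid, and RA scrambled (2 arrays) were cells with the scrambled control infection treated in the same way. ESC KD1 (2 arrays), ESC KD2 (2 arrays) and ESC scrambled (2 arrays) were undifferentiated cells of the first knockdown line, of the other knockdown line and of the control, all kept with LIF. Smarcd1 encodes BAF60a, which belongs to the BAF complexes, the mammalian SWI/SNF chromatin remodellers. The labels speak of clones and of biological replicates without saying how replicates were kept apart, so p-values measure only the spread between arrays, which may be technical, and arrays of 1 line do not replicate the knockdown. Retinoic acid-treated KD2 cells were not analysed here. All values are log2 expression levels, and differences are log2 changes, in which 1 unit is a 2-fold difference.

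FGF receptors are cell surface tyrosine kinases that bind fibroblast growth factors together with heparan sulfate and signal largely through the adaptor FRS2 to Ras and ERK. β-Klotho, the product of Klb, is a membrane protein that pairs with FGFR1 or FGFR4 so that the endocrine ligands FGF15 (FGF19 in humans) and FGF21 can act, best known in liver and fat. In mouse ESCs and the blastocyst, FGF4 from the epiblast lineage acts through FGFR1 and FGFR2, drives exit from the naive state and promotes primitive endoderm, the source of the extraembryonic endoderm.

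Smarcd1 itself was measured at 6.36, 6.61, 6.50 and 6.44 in RA KD1 cells, against 8.84 and 8.64 in RA scrambled cells. In undifferentiated cells it was at 7.75 and 7.78 in KD1, and at 8.56 and 7.16 in KD2, against 8.67 and 8.68 in scrambled. Every KD1 array lay below every scrambled array. Smarcd1 passed the test after retinoic acid (log2 change -2.26 ± 0.28, SE, limma adjusted p = 0.000152). In undifferentiated cells it did not pass in KD1 (-0.91 ± 0.33, SE, limma adjusted p = 0.23) or in KD2 (-0.81 ± 0.33, 0.152). The array labelled KD2 replicate 1 lay close to the scrambled level, so its knockdown label was not borne out. Every KD2 value below rests on that array in part. The 2 KD2 arrays also correlated least with each other, at 0.963 over all 19938 named genes, and each result on KD2 is given with that in mind. Extraembryonic endoderm markers averaged 9.25 to 9.57 on RA KD1 arrays, against 7.10 to 7.16 on RA scrambled arrays, and 6.64 to 6.68 on ESC KD1 and 5.55 to 5.87 on ESC KD2 arrays, against 5.90 to 5.93 on ESC scrambled arrays.

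**Figure D1:**
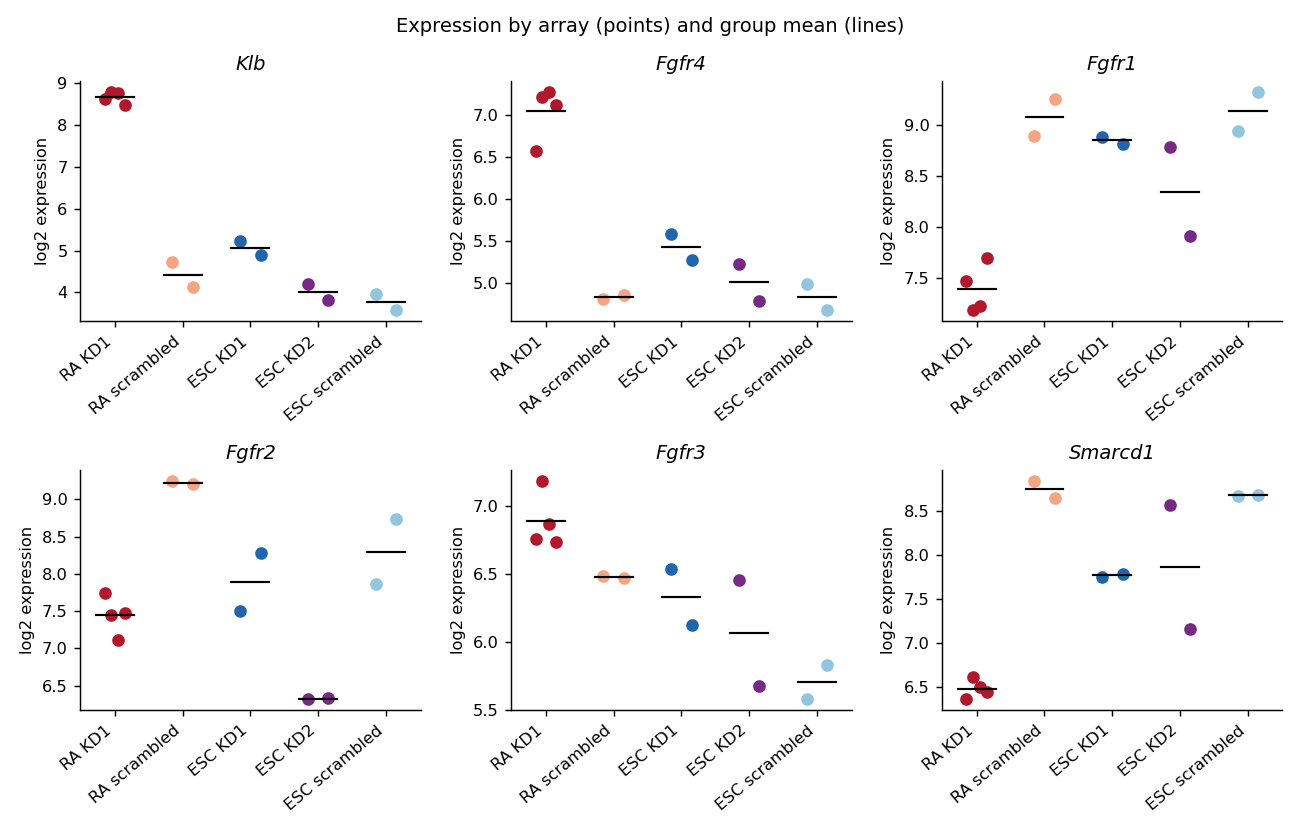
Log2 expression (y axis) of Klb, the FGF receptor genes and Smarcd1 on each array (points) in the 5 groups (x axis), with the group mean as a line. Klb and Fgfr4 were highest on the 4 RA KD1 arrays, where Fgfr1 was lowest, and the array labelled KD2 replicate 1 had 8.56 for Smarcd1.

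After 4 days of retinoic acid the members stood in opposite directions in KD1 cells. Klb was 18.9-fold higher than in scrambled cells. That fold rests on a dim baseline, since 1 of the 2 RA scrambled arrays lay below the level used to filter dim genes. Fgfr4 was 4.67-fold higher, Fgfr1 was 3.23-fold and Fgfr2 3.44-fold lower, and Fgfr3 did not pass the test. Thus 4 of the 5 members were called at a Benjamini-Hochberg adjusted p under 0.05, 2 higher and 2 lower, where 22.7% of the 12988 genes tested were called, 11.2% higher and 11.5% lower. Because the family was chosen with these values known, nothing is read from that share. In bulk RNA, fewer cells of a type and less RNA per cell cannot be told apart, and this holds for every difference below. The share of all genes whose groups separate without overlap was not counted. Where separation is described below, nothing is read from it.

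Klb, the co-receptor, lies on chromosome 5 at 65348411 to 65386957 (GRCm38, probe set 10522127). It was at 8.61, 8.78, 8.76 and 8.48 in RA KD1 cells, against 4.72 and 4.12 in RA scrambled cells. The 4 knockdown arrays lay close together and far above both controls. The log2 change was 4.24 ± 0.20 (SE, limma adjusted p = 2.19e-07), and every alternative kept the call, with changes of 3.94 to 4.54. Klb was above the level used to filter dim genes on all 4 RA KD1 arrays and both ESC KD1 arrays, but on 1 RA scrambled array and on 0 of the 4 ESC KD2 and ESC scrambled arrays. It was thus tested through the groups in which it is high.

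Fgfr4, the receptor that pairs with β-Klotho in liver, lies on chromosome 13 at 55152818 to 55168759 (probe set 10405380). It was at 6.57, 7.22, 7.28 and 7.13 in RA KD1 cells, against 4.81 and 4.85 in RA scrambled cells. Replicate 1 was the lowest of the knockdown arrays and still lay well above both controls. The log2 change was 2.22 ± 0.22 (SE, limma adjusted p = 2.37e-05), with a range of 2.07 to 2.39 over the alternatives.

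Fgfr1, a main receptor for FGF4 in mouse ESCs, lies on chromosome 8 at 25518759 to 25575718 (probe set 10570982). It was at 7.47, 7.18, 7.22 and 7.70 in RA KD1 cells, against 8.90 and 9.26 in RA scrambled cells, with no overlap. The log2 change was -1.69 ± 0.24 (SE, limma adjusted p = 0.000396). The 706 genes tested on chromosome 8 had a median change of -0.31 in this comparison, against -0.01 for genes elsewhere, and medians of -0.30 in ESC KD1 and -0.32 in ESC KD2 against scrambled. The part of that shift in the Fgfr1 values was not tested.

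Fgfr2, whose IIIc and IIIb splice forms bind different ligands and which is known for its role in primitive endoderm, lies on chromosome 7 at 130162451 to 130266808 (probe set 10568436). It was at 7.75, 7.45, 7.12 and 7.47 in RA KD1 cells, against 9.25 and 9.20 in RA scrambled cells. The groups were separate, and the log2 change was -1.78 ± 0.26 (SE, limma adjusted p = 0.000504). The probe set measures the gene and does not separate splice forms.

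Fgfr3, known for limiting growth in cartilage, lies on chromosome 5 at 33721724 to 33737068 (probe set 10521111). It was at 6.76, 7.19, 6.87 and 6.74 in RA KD1 cells, against 6.49 and 6.47 in RA scrambled cells. All 4 knockdown values lay above both controls, but the log2 change of 0.41 ± 0.22 did not pass (SE, limma adjusted p = 0.228), with a 95% interval of -0.07 to 0.89.

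The start regions of Klb, Fgfr4 and Fgfr2 are shown because these genes had the largest log2 changes of the family after retinoic acid, 2 higher and 1 lower in KD1 cells. Each line holds 300 bases from RefSeq (GRCm38.p6), from 250 bases before the annotated gene start to 50 after it, written 5′ to 3′ on the gene's strand. The regions are chr5:65348161-65348460 on the plus strand for Klb, chr13:55152568-55152867 on the plus strand for Fgfr4 and chr7:130266759-130267058 on the minus strand for Fgfr2. Capitals mark matches to a GATA motif (AGATAA or AGATAG, and TGATAA or TGATAG) or to the GC box GGGCGG on either strand.
Klb: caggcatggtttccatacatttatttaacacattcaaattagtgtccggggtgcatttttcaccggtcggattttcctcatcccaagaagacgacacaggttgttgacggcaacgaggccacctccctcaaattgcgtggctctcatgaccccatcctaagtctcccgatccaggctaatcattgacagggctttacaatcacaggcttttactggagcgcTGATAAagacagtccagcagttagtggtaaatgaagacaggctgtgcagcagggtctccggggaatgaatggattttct
Fgfr4: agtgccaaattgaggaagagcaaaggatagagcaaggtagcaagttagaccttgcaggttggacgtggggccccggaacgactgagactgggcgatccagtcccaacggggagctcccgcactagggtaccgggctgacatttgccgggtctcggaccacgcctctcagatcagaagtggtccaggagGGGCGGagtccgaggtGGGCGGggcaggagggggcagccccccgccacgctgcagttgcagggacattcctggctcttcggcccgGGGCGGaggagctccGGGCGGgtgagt
Fgfr2: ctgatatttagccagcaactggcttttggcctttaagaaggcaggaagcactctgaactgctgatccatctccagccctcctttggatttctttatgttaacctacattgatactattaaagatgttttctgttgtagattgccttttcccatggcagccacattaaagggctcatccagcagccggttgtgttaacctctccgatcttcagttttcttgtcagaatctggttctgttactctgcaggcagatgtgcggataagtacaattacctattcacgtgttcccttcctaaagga

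The Klb window held 1 GATA match and 0 GC boxes, with a GC content of 48.3%. The Fgfr4 window held 4 GC boxes and 0 GATA matches, with a GC content of 65.3%, and the Fgfr2 window held neither motif at 43.7% GC. Among all 32851 promoter windows of this length, 29.8% held a GATA match and 35.7% a GC box, and the median GC content was 52.7%. These are matches of letters in short windows and say nothing of binding.

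Markers of other cells moved with these differences. Of 15 tested extraembryonic endoderm markers, 13 were higher and 0 lower in RA KD1 than in RA scrambled cells, with a median log2 change of 2.43 where the median of all tested genes was -0.02. Gata4, a transcription factor of that lineage, averaged 10.72 ± 0.27 in RA KD1 cells (SD, n = 4) and 6.38 ± 0.12 in RA scrambled cells (SD, n = 2), and Lama1, a basement membrane laminin gene, averaged 12.34 ± 0.22 in RA KD1 and 8.18 ± 0.19 in RA scrambled cells. Visceral endoderm genes of the list did not all go one way. The endocytic receptor gene Cubn averaged 8.41 ± 0.87 in RA KD1 and 6.57 ± 0.62 in RA scrambled cells, Lrp2 averaged 9.72 ± 0.24 in RA KD1 and 8.10 ± 0.17 in RA scrambled cells, and the adaptor gene Dab2 averaged 11.09 ± 0.25 in RA KD1 and 9.41 ± 0.03 in RA scrambled cells. Among the secreted carriers and Amn, a partner of cubilin, Afp lay at 3.42 to 3.63 in RA KD1 and at 3.40 to 3.61 in RA scrambled cells, Ttr at 4.12 to 5.68 in RA KD1 and 4.18 to 4.39 in RA scrambled cells, and Amn at 4.73 to 5.25 in RA KD1 and 5.20 to 5.21 in RA scrambled cells. Feeder fibroblast markers, 14 genes of which 12 were tested, averaged 6.38 to 6.75 on RA KD1 arrays, against 7.34 to 7.67 on RA scrambled arrays, with 0 higher and 5 lower. Of 6 tested neural markers 0 were higher and 4 lower, of 6 mesoderm markers 0 and 2, of 7 trophectoderm markers 0 and 1, of 8 primed epiblast markers 2 and 3, and of 12 markers of pluripotent cells 4 and 1, the last averaging 6.22 to 7.02 on RA KD1 and 6.39 to 6.45 on RA scrambled arrays. The part of these cell types in the receptor values was not tested.

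**Figure D2:**
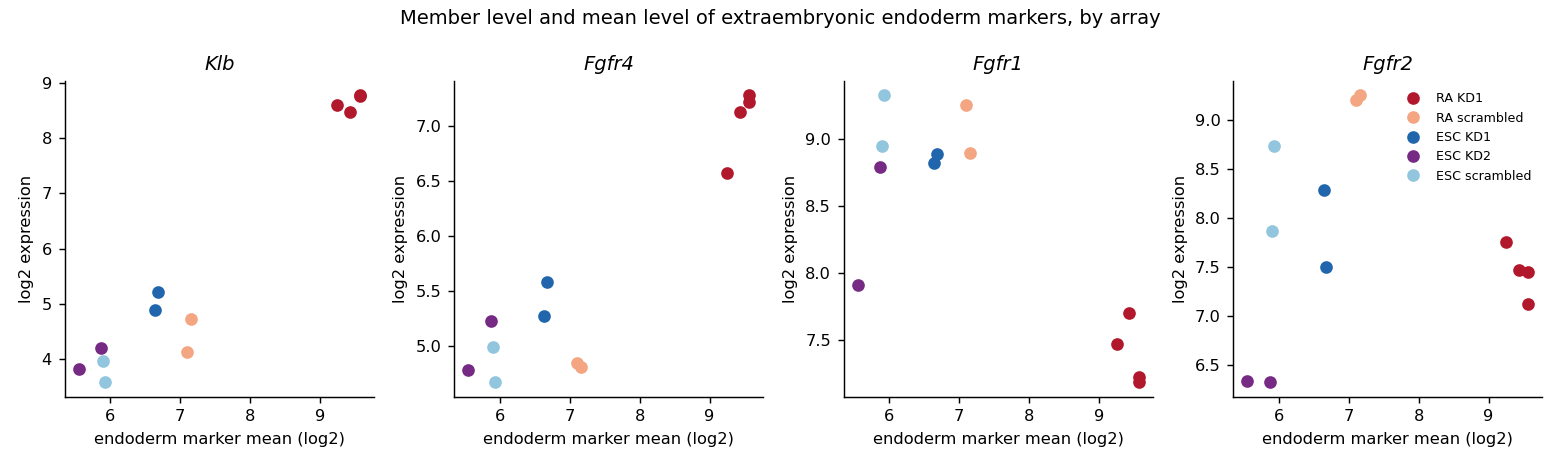
Log2 expression of Klb, Fgfr4, Fgfr1 and Fgfr2 (y axis) against the mean log2 level of extraembryonic endoderm markers (x axis), 1 point per array, coloured by group. The 4 RA KD1 arrays stand apart at marker means of 9.25 to 9.57. Marker means were 7.10 to 7.16 on RA scrambled and 6.64 to 6.68 on ESC KD1 arrays, and the mean Klb levels there were 4.42 and 5.05. For Klb, 1 of the 2 RA scrambled arrays lay below the filter level. The part of the marker signal in the member levels was not tested.

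The change with retinoic acid was then taken within each line. In KD1 cells, where RA KD1 was set against ESC KD1, 3 of 5 members were called, 2 higher and 1 lower, and 50.8% of all genes were, 29.4% higher and 21.4% lower. Klb was 12.2-fold higher in RA KD1, with 8.61, 8.78, 8.76 and 8.48, against 5.22 and 4.89 in ESC KD1 (log2 change 3.61 ± 0.20, SE, limma adjusted p = 1.39e-07). Fgfr4 was 3.08-fold higher and Fgfr1 2.76-fold lower, with ESC KD1 values of 5.58 and 5.27 for Fgfr4 and of 8.89 and 8.82 for Fgfr1. Their log2 changes were 1.62 ± 0.22 and -1.47 ± 0.24 (SE, limma adjusted p = 7.79e-05 and 0.000372). No array of RA KD1 overlapped ESC KD1 for any of these genes. Of 12 markers of pluripotent cells 0 were higher and 10 lower in the same comparison, with a median log2 change of -3.86, and of 15 extraembryonic endoderm markers 13 were higher and 1 lower, with a median of 3.55. Their part in the receptor values was not tested.

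Fgfr2 in KD1 cells had a log2 change of -0.45 ± 0.26 with retinoic acid (SE, limma adjusted p = 0.178, 95% interval -1.02 to 0.13), from RA KD1 values that overlapped the ESC KD1 values of 7.50 and 8.28. Fgfr3 had a log2 change of 0.55 ± 0.22 (SE, limma adjusted p = 0.0541), and without both KD2 arrays, which are not in that comparison but share its spread, the adjusted p was 0.00977. Its RA KD1 values all lay above the ESC KD1 values of 6.54 and 6.13.

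In scrambled cells, RA scrambled against ESC scrambled, 3 of 5 members were called, all higher, and 39.1% of all genes were, 22.4% higher and 16.7% lower. Fgfr2 was 1.90-fold higher, at 9.25 and 9.20 in RA scrambled, against 7.87 and 8.73 in ESC scrambled (log2 change 0.93 ± 0.30, SE, limma adjusted p = 0.0305). Fgfr3 was 1.71-fold higher, at 6.49 and 6.47 in RA scrambled, against 5.58 and 5.83 in ESC scrambled (0.78 ± 0.25, SE, limma adjusted p = 0.0306). Klb was at 4.72 and 4.12 in RA scrambled, against 3.96 and 3.57 in ESC scrambled (log2 change 0.65 ± 0.23, SE, limma adjusted p = 0.0445). In each of the 3 genes both differentiated values lay above both undifferentiated ones. With 2 arrays a group, and no count of such separation over all genes, nothing is read from that. For Klb both ESC scrambled arrays and 1 RA scrambled array lay below the filter level, so its difference is between dim values and no fold is given. Of the pluripotent markers 1 was higher and 11 were lower here, with a median of -3.15, and of the endoderm markers 10 were higher and 0 lower, with a median of 1.01, and their part was not tested.

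These 3 calls were fragile. Klb lost its call in 14 of 25 alternatives, among them without RA scrambled replicate 1 (0.35, limma adjusted p = 0.353) and without ESC scrambled replicate 2 (0.46, 0.264). Fgfr2 lost it without ESC scrambled replicate 1 (0.50, limma adjusted p = 0.286) and without either RA scrambled array, and Fgfr3 without any one of the 4 scrambled arrays. Fgfr1 was at 8.90 and 9.26 in RA scrambled, against 8.95 and 9.33 in ESC scrambled, a log2 change of -0.06 ± 0.28 (SE, limma adjusted p = 0.888, 95% interval -0.67 to 0.55). Fgfr4 averaged 4.83 in both groups, with a 95% interval of -0.55 to 0.54 for the log2 change. Where arrays were centred on their medians, the median change of all tested genes with retinoic acid was 0.33 in KD1 and 0.24 in scrambled cells, against 0.06 in both on the deposited scale. Relative to the median on the deposited scale, the changes in KD1 cells were 3.55 for Klb, 1.57 for Fgfr4, -1.52 for Fgfr1, -0.50 for Fgfr2 and 0.50 for Fgfr3, and in scrambled cells 0.59 for Klb, -0.07 for Fgfr4, -0.13 for Fgfr1, 0.86 for Fgfr2 and 0.71 for Fgfr3.

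Whether the response to retinoic acid differed between the KD1 line and scrambled cells was tested as the interaction. It is the KD1 change after retinoic acid minus the KD1 change in ESCs. With 1 line, the knockdown cannot be told apart from other traits of that line. Smarcd1 itself was lower with retinoic acid in KD1 cells (-1.29 ± 0.28, SE, limma adjusted p = 0.00265), and its interaction of -1.35 ± 0.43 did not pass (0.0855). The interaction called 3 of 5 members, 2 upward and 1 downward, and 7.88% of all genes, 4.27% upward and 3.61% downward. Klb had an interaction of 2.95 ± 0.31 (SE, limma adjusted p = 0.000179) and kept the call under every alternative, at 2.65 to 3.26. Fgfr4 had one of 1.63 ± 0.33 (SE, limma adjusted p = 0.0114), which was lost in 7 of 25 alternatives, among them without ESC scrambled replicate 1 (adjusted p = 0.0548), ESC KD1 replicate 2 (0.0641) and RA scrambled replicate 1 (0.0524) or 2 (0.0517). Fgfr1 had one of -1.40 ± 0.37 (SE, limma adjusted p = 0.0388), which was lost in 15 of 25.

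Fgfr2 had an interaction of -1.37 ± 0.40 that did not pass (SE, limma adjusted p = 0.0602). It passed in 7 alternatives, among them without both KD2 arrays (-1.37, limma adjusted p = 0.0371), which are not in this comparison but share its spread. Leaving out either KD2 array or fitting only the compared arrays gave the same result, so these are not separate support. Calls over all genes also rose without both KD2 arrays, to 2399 from 1024. The change was -1.80 without ESC scrambled replicate 2 and -1.76 without ESC KD1 replicate 1. Fgfr2 lay higher on both RA scrambled arrays than on any other array, while its level in RA KD1 overlapped that in ESC KD1. Fgfr3 had one of -0.22 ± 0.34 (SE, limma adjusted p = 0.793).

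**Figure D3:**
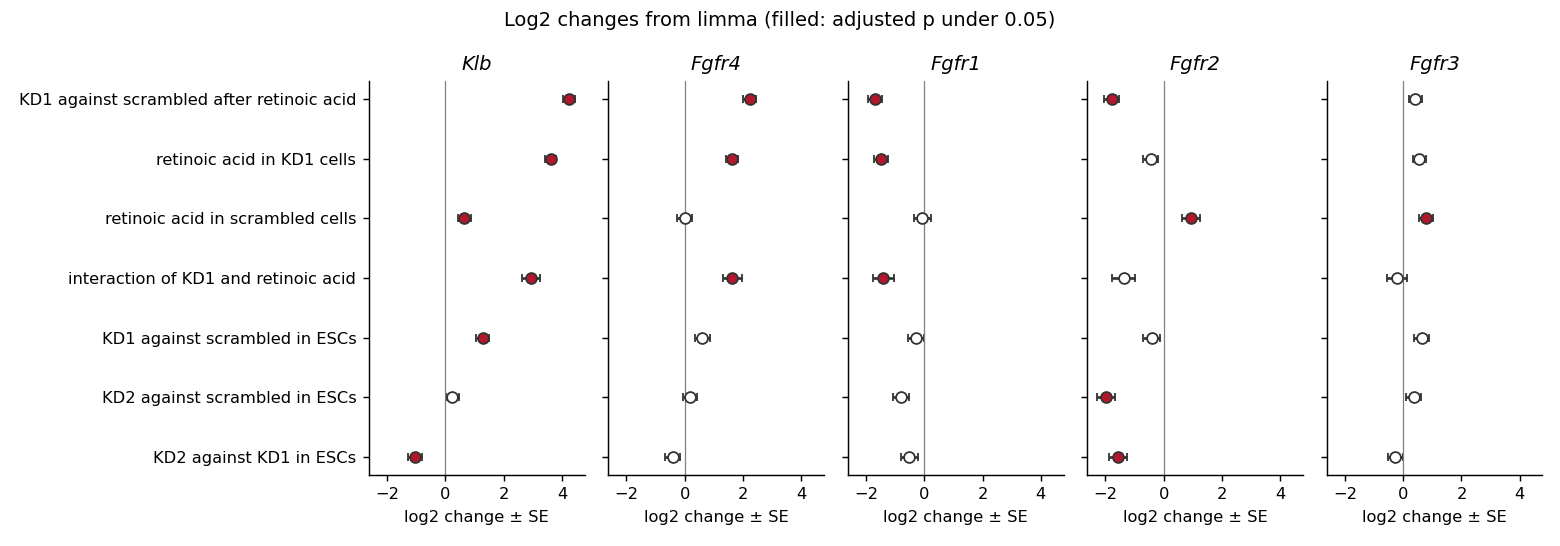
Log2 change with its SE (x axis) for each member, 1 panel per gene, in the 7 comparisons (y axis), with filled points at a limma adjusted p under 0.05. Klb and Fgfr4 lie to the right and Fgfr1 and Fgfr2 to the left in KD1 against scrambled cells after retinoic acid, with 4.24 for Klb the largest log2 change shown.

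The lines were next compared in undifferentiated cells. In ESC KD1 against ESC scrambled, 1 of 5 members was called, higher, and 2.32% of all genes were, 0.909% higher and 1.41% lower. Klb was at 5.22 and 4.89 in ESC KD1, against 3.96 and 3.57 in ESC scrambled (log2 change 1.28 ± 0.23, SE, limma adjusted p = 0.0185). Both knockdown values lay above both controls, which were below the filter level, so no fold is given. The call was lost without ESC scrambled replicate 2 (1.09, limma adjusted p = 0.191) and without ESC KD1 replicate 1 (1.12, 0.184) or 2 (1.45, 0.0747). Of the extraembryonic endoderm markers 5 of 15 were higher and 0 lower in the same comparison, with a median of 0.55, and feeder markers averaged 5.98 to 6.76 on ESC KD1 arrays, against 7.01 to 7.07 on ESC scrambled arrays. The part of either in the Klb value was not tested.

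The receptors did not pass in ESC KD1. Fgfr4 had a log2 change of 0.60 ± 0.25 (SE, limma adjusted p = 0.329) and Fgfr3 one of 0.63 ± 0.25 (0.307). Fgfr1 had one of -0.29 ± 0.28 (adjusted p = 0.802, 95% interval -0.90 to 0.32) and Fgfr2 one of -0.41 ± 0.30 (0.686). For Fgfr3 and Fgfr4 both ESC KD1 arrays lay above both ESC scrambled arrays, and for Fgfr2 the groups overlapped. Nothing is read from that separation, which was not counted over all genes.

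ESC KD2 against ESC scrambled uses the same scrambled arrays as ESC KD1, so the comparisons are not independent. It called 1 of 5 members, lower, and 10.0% of all genes, 2.88% higher and 7.15% lower. Fgfr2 was 3.93-fold lower, at 6.32 and 6.33 in ESC KD2, against 7.87 and 8.73 in ESC scrambled (log2 change -1.98 ± 0.30, SE, limma adjusted p = 0.00259). The KD2 arrays gave nearly the same Fgfr2 value although they differed in Smarcd1, and both lay below every other array of the series. The call was lost with array weights (adjusted p = 0.469), which set each KD2 array to 0.137 while the others had 1.17 to 2.06, and with only the compared arrays in the fit (0.227). Over all genes, array weights left 6 calls and the compared arrays alone left 0. Feeder markers averaged 6.19 to 6.57 on ESC KD2 arrays, against 7.01 to 7.07 on ESC scrambled arrays, with 3 of 12 lower. Primed epiblast markers averaged 6.69 to 6.98 on ESC KD2 arrays, against 8.04 to 8.64 on ESC scrambled arrays, with 5 of 8 lower and a median log2 change of -1.63, and of 12 markers of pluripotent cells 3 were higher and 1 lower. The part of these markers in the Fgfr2 value was not tested.

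For Klb, Fgfr4 and Fgfr3 the ESC KD2 changes were 0.24 ± 0.23, 0.18 ± 0.25 and 0.36 ± 0.25 (SE, limma adjusted p = 0.592, 0.726 and 0.433). Fgfr1 was at 8.79 and 7.91 in ESC KD2, against 8.95 and 9.33 in ESC scrambled, a log2 change of -0.79 ± 0.28 (SE, limma adjusted p = 0.100). Without the array labelled KD2 replicate 1, the Fgfr1 change was -1.23, and without KD2 replicate 2 the Fgfr3 change was 0.75. Each of these fits leaves 1 KD2 array and takes its spread from the other groups, so no p-value is given.

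Set directly against each other, ESC KD2 minus ESC KD1, the 2 lines differed in 2 of 5 members, both lower in KD2, where 2.70% of all genes were called, 0.508% higher and 2.19% lower. Klb was at 4.19 and 3.82 in KD2, both below the filter level, against 5.22 and 4.89 in KD1 (log2 change -1.04 ± 0.23, SE, limma adjusted p = 0.0413). Fgfr2 was 2.97-fold lower in KD2, at 6.32 and 6.33, against 7.50 and 8.28 in KD1 (-1.57 ± 0.30, SE, limma adjusted p = 0.0236). The Klb call was lost in 14 of 22 alternatives and the Fgfr2 call in 6, among them without ESC KD1 replicate 1 (-1.96, adjusted p = 0.0618) or 2 (-1.18, 0.202). Extraembryonic endoderm markers were lower in KD2 than KD1 for 6 of 15 and higher for 0.

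Across the 5 groups, Klb averaged 8.66 ± 0.14 in RA KD1 and 4.42 ± 0.43 in RA scrambled cells, and 5.05 ± 0.23 in ESC KD1, 4.01 ± 0.26 in ESC KD2 and 3.77 ± 0.28 in ESC scrambled cells (SD, n = 4 in RA KD1 and 2 elsewhere, as for the other members). RA KD1 lay clear of all others and ESC KD1 above RA scrambled on every array, while RA scrambled overlapped ESC KD2, and ESC KD2 overlapped ESC scrambled. Fgfr4 averaged 7.05 ± 0.33 in RA KD1 and 4.83 ± 0.03 in RA scrambled cells, and 5.43 ± 0.22 in ESC KD1, 5.01 ± 0.31 in ESC KD2 and 4.83 ± 0.23 in ESC scrambled cells. Below RA KD1, the highest group, the lowest ESC KD1 array at 5.27 lay just above the highest ESC KD2 array at 5.23. That gap was smaller than the SD of either group, and the remaining 3 groups overlapped.

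Fgfr1 averaged 7.39 ± 0.24 in RA KD1 and 9.08 ± 0.26 in RA scrambled cells, and 8.86 ± 0.04 in ESC KD1, 8.35 ± 0.62 in ESC KD2 and 9.14 ± 0.27 in ESC scrambled cells. RA KD1 was lowest without overlap, its highest array at 7.70 lying below the lowest ESC KD2 array at 7.91, a gap smaller than the ESC KD2 SD. The scrambled groups overlapped at the top, and the gaps on either side of ESC KD1 were smaller than the SD of its neighbours. Fgfr2 averaged 7.45 ± 0.26 in RA KD1 and 9.23 ± 0.03 in RA scrambled cells, and 7.89 ± 0.55 in ESC KD1, 6.32 ± 0.01 in ESC KD2 and 8.30 ± 0.61 in ESC scrambled cells. RA scrambled stood clear at the top and ESC KD2 at the bottom, and ESC KD1 overlapped both ESC scrambled above it and RA KD1 below it, which did not overlap each other. Fgfr3 averaged 6.89 ± 0.21 in RA KD1 and 6.48 ± 0.01 in RA scrambled cells, and 6.33 ± 0.29 in ESC KD1, 6.07 ± 0.55 in ESC KD2 and 5.70 ± 0.18 in ESC scrambled cells. Its group means spanned the narrowest range of the family, and RA KD1 alone lay clear of the next group.

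The genes whose log2 levels followed each member most closely over the 12 arrays were found by Pearson correlation, as a description in which RA KD1 arrays weigh most and the arrays share 5 groups. For Klb they were Slc44a3, B4galnt2 and Lama1 (0.992 each), Dram1 (0.989) and Hs3st1 (0.988), and for Fgfr4 they were Dram1 and Tnfrsf21 (0.983 each), Spock1 and Prkaa2 (0.982 each) and Plod2 (0.981). For Fgfr1 they were led by Col18a1 (0.978) and Itpripl1 (0.965), for Fgfr2 by Itm2a (0.957) and Grina (0.928), and for Fgfr3 by Capn15 (0.950) and Adck2 (0.938). Lama1 and Dram1 appear for members that were high in RA KD1 cells.

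The other genes of the pathway were read by role. Among 18 FGF ligand genes 9 were tested, and 1 was higher and 4 lower in RA KD1 than in RA scrambled cells, with a median log2 change of -0.17 where all genes had -0.02. Of all tested genes 11.2% were called higher and 11.5% lower in this comparison, the share to set beside each list below. The lists were chosen with results known, so nothing is read from their counts. Fgf15, the mouse ligand that β-Klotho serves, was at 5.26, 4.94, 5.05 and 5.18 in RA KD1 cells, against 8.43 and 6.50 in RA scrambled cells (-2.36 ± 0.51, SE, limma adjusted p = 0.00554). Without RA scrambled replicate 1, the higher of the controls, its change was -1.39 (adjusted p = 0.117). Fgf21, the other ligand of this kind, was dim at 3.44 to 4.01 over all 12 arrays and was not tested, as was Kl, the gene of α-Klotho, at 3.04 to 3.50.

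Fgf5, expressed in the primed epiblast, was at 4.30, 4.11, 4.62 and 4.53 in RA KD1 cells, against 6.13 and 6.47 in RA scrambled cells (-1.91 ± 0.18, SE, limma adjusted p = 1.63e-05). Fgf10, a ligand of the FGFR2 IIIb form, was higher (1.23 ± 0.38, adjusted p = 0.0342), and Fgf18 and Fgf9 were lower (-0.56 ± 0.17 and -0.52 ± 0.14). The Fgf10 and Fgf18 calls were each lost in 9 of 23 alternatives. Without RA scrambled replicate 1 the Fgf10 change was 1.07, and without RA scrambled replicate 2 the Fgf18 change was -0.51. With RA KD1 replicates 1 and 2 only, the Fgf10 change was 0.60, and the alternatives ran up to 1.87. The replicate block gave the same 0.60, because only RA KD1 has replicates 3 and 4 and the block sets them aside. With retinoic acid, Fgf4 had log2 changes of -4.67 in KD1 and -3.88 in scrambled cells and Fgf17 of -2.59 in KD1 and -2.79 in scrambled cells. In the ligand list, the KD1 line called 1 higher and 4 lower with retinoic acid, where 29.4% of all genes were higher and 21.4% lower. The scrambled line called 2 higher and 5 lower, where 22.4% of all genes were higher and 16.7% lower.

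Of 8 tested co-receptors and receptor partners, 2 were higher and 2 lower in RA KD1 cells. Cdh2, N-cadherin, which can bind FGFR1, was at 8.28, 7.72, 7.57 and 8.13 in RA KD1 cells, against 9.58 and 9.60 in RA scrambled cells (-1.67 ± 0.20, SE, limma adjusted p = 0.000118). Flrt3, a membrane protein that can bind FGF receptors, was at 9.38, 9.73, 9.70 and 9.73 in RA KD1 cells, against 8.55 and 8.79 in RA scrambled cells (0.96 ± 0.15, SE, limma adjusted p = 0.000617). Flrt2 was higher (1.16 ± 0.28), and Fgfrl1, a receptor-like protein without a kinase domain, was lower (-0.61 ± 0.18). The Flrt2 call was lost in 3 and the Fgfrl1 call in 7 of 23 alternatives.

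Heparan sulfate genes held the largest change of the pathway lists, with 4 higher and 6 lower of 20 tested in RA KD1 cells and a median of 0.08. Hs3st1, a heparan sulfate 3-O-sulfotransferase, was at 8.97, 9.13, 9.52 and 9.50 in RA KD1 cells, against 5.23 and 5.46 in RA scrambled cells (3.93 ± 0.21, SE, limma adjusted p = 3.22e-07). Sdc4, a heparan sulfate proteoglycan of the cell surface, was at 10.98, 11.16, 11.21 and 11.08 in RA KD1 cells, against 8.64 and 8.84 in RA scrambled cells (2.37 ± 0.22, SE, limma adjusted p = 1.76e-05). Both groups were fully separate in these genes. The proteoglycan genes Gpc3 (-1.44 ± 0.15) and Sdc2 (-1.40 ± 0.19) were lower, so members of the list moved both ways. The interaction called Hs3st1 (3.25 ± 0.32, SE, limma adjusted p = 0.000125) and Sdc4 (1.70, adjusted p = 0.0103), the Sdc4 call being lost in 6 of 23 alternatives.

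Downstream genes were read in the same way. Of 15 tested adaptors and Ras-ERK genes, 0 were higher and 1 lower, Cbl, a ubiquitin ligase of receptor kinases (-0.42), whose call was lost in 14 of 23 alternatives (limma adjusted p up to 0.296, without RA scrambled replicate 1). Of 12 tested feedback and output genes of ERK, 0 were higher and 3 lower in RA KD1 cells, with a median of -0.50, namely the inhibitors Spred2 (-0.95 ± 0.17, SE, limma adjusted p = 0.00179) and Spred1 (-0.94) and the transcription factor gene Etv5 (-0.89). Of these calls, those of Spred1 and Etv5 were each lost in 4 of 23 alternatives. Of 4 splicing regulators 1 was higher, Esrp1, which favours the IIIb forms of FGF receptors. It was at 6.69, 7.06, 6.92 and 6.79 in RA KD1 cells, against 5.90 and 5.35 in RA scrambled cells (1.24 ± 0.26, SE, limma adjusted p = 0.00439). Without RA scrambled replicate 2 its change was 0.96 (adjusted p = 0.0848).

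**Figure D4:**
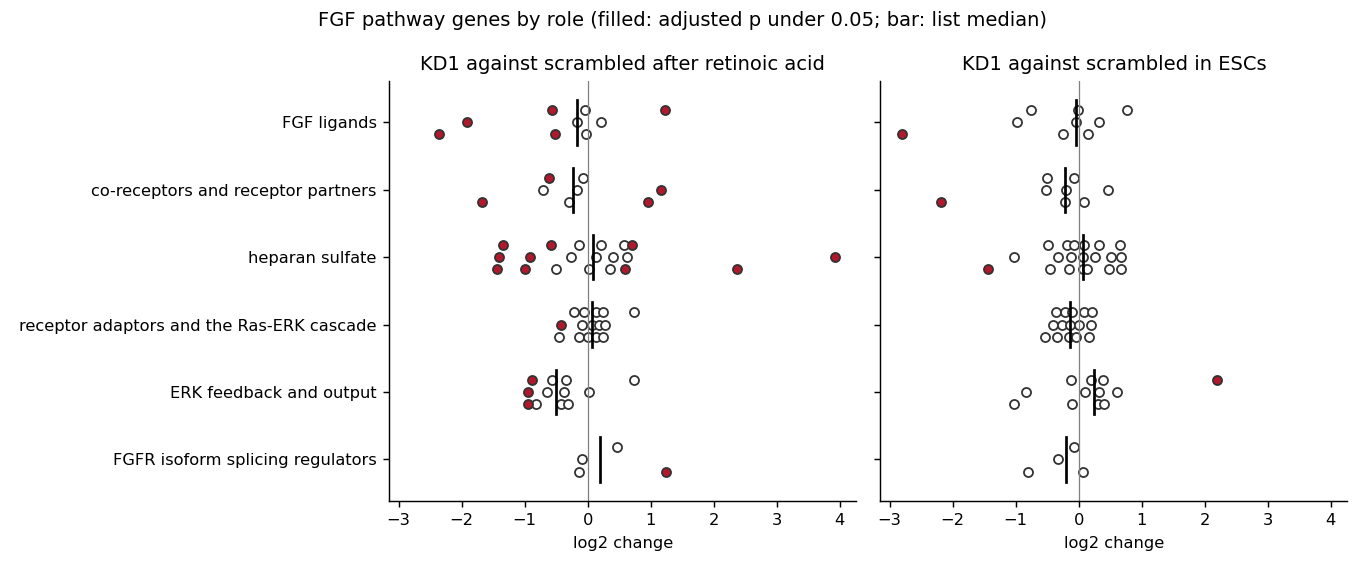
Log2 change (x axis) of each tested gene of the 6 FGF pathway lists (rows), in KD1 against scrambled cells after retinoic acid (left) and in ESCs (right), with filled points at a limma adjusted p under 0.05 and a bar at the list median. Hs3st1 at 3.93 lies farthest right after retinoic acid, and Fgf5 at -2.81 farthest left in ESCs.

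In undifferentiated KD1 cells the 6 lists held 4 called genes, where 2.32% of all tested genes were called, 0.909% higher and 1.41% lower. Tested were 9 ligands, 8 co-receptors and partners, 20 heparan sulfate genes, 15 adaptors and Ras-ERK genes, 12 feedback and output genes and 4 splicing regulators. Nothing is read from that count. Spry4, a feedback inhibitor induced by ERK, was at 9.54 and 9.71 in ESC KD1, against 7.41 and 7.42 in ESC scrambled (2.20 ± 0.27, SE, limma adjusted p = 0.00275). Lower were Fgf5, at 5.03 and 5.32 in ESC KD1, against 7.88 and 8.09 in ESC scrambled (-2.81 ± 0.20, SE, limma adjusted p = 6.21e-05), Cdh2 (-2.18 ± 0.23, adjusted p = 0.000843) and Sulf1, a heparan sulfate sulfatase (-1.43 ± 0.22, adjusted p = 0.00845). The Sulf1 call was lost without ESC scrambled replicate 2 (-1.24, adjusted p = 0.105) and without ESC KD1 replicate 1 (-1.14, 0.108). The KD1 difference in Spry4 was not seen after retinoic acid, with an interaction of -2.18 (limma adjusted p = 0.00332) and overlapping low levels in both RA groups, at 4.71 to 5.41 in RA KD1 and at 4.72 and 5.42 in RA scrambled cells.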

How the data were processed

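RNA of 12 samples was measured on 1 Affymetrix gene array each. The authors deposited log2 values per probe set, and RMA is the tool that the submitters' processing notes name. Its version and settings are not given in the sources. Array medians ran from 4.73 to 5.09, and no further scaling was applied. An array carries no read depth, and the number of arrays limits precision.

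Of 35556 probe sets, 21789 had 1 gene symbol in the platform's gene table, 1621 had several and 12146 were not in it. The RefSeq table held the Entrez identifier of 21698, with 0 symbols changed. The brightest probe set by mean stood for each of the 999 genes, of 19938, that had more than 1. Genes were tested if they exceeded the array's percentile 40 on at least 2 arrays, which left 12988 genes, all members included. Groups follow the sample titles.

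A group-means model over all 12 arrays was fitted in limma 3.58.1 (R 4.3.3, 7 residual degrees of freedom, prior 4.58), with two-sided moderated tests and Benjamini-Hochberg adjustment over all tested genes within a comparison. Calls had an adjusted p under 0.05. The code was tested on simulated data. Tables and plots used Python 3.11.15, pandas 2.3.3, numpy 2.4.6 and matplotlib 3.10.9.

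The members, the 6 pathway lists, the marker lists and the tests were chosen with earlier results of these data known. Named genes are the members, Smarcd1, up to 4 called genes of each pathway list with the largest changes per comparison, and per member up to 5 genes of highest Pearson correlation, not all of which are printed. Gata4, Lama1, Cubn, Lrp2, Dab2, Afp, Ttr, Amn, Fgf21, Kl and Fgf9 were named outside that rule, with their values seen. Promoter windows came from RefSeq (GRCm38.p6), which held one for 4 members. Alternatives covered scaling, the filter on dim genes, probe set averaging, an intensity trend, array weights, thresholds, the arrays fitted, a replicate block and leaving out each array.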

Additional observations from a re-analysis of the deposited data

Results flagged for a closer look

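For 3 members the KD1 change differed by the test of the difference itself between cells after retinoic acid and undifferentiated cells. The difference in log2 change was 2.95 for Klb, with changes of 4.24 after retinoic acid and 1.28 in ESCs. It was 1.63 for Fgfr4, with 2.22 and 0.60, and -1.40 for Fgfr1, with -1.69 and -0.29. The Klb call held under every alternative, while the Fgfr4 call was lost in 7 of 25 and the Fgfr1 call in 15 of 25. For 2 members the KD2 change differed from the KD1 change in ESCs, by -1.04 for Klb, with 0.24 in KD2 and 1.28 in KD1, and by -1.57 for Fgfr2, with -1.98 in KD2 and -0.41 in KD1. The Klb call was lost in 14 of 22 alternatives and the Fgfr2 call in 6 of 22. The comparison of the lines rests on the KD2 arrays, of which replicate 1 had a Smarcd1 level close to the controls. No member had an array standing apart from the other 3 within RA KD1, the group with enough arrays for that check.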

How the results depend on the processing

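Over the 35 member results and 835 alternatives, 730 kept direction and side of the threshold, 76 lost and 18 gained a call, and 11 turned direction, 0 of them among called results. The calls of Klb, Fgfr4, Fgfr1 and Fgfr2 in KD1 after retinoic acid, of Klb, Fgfr4 and Fgfr1 with retinoic acid in KD1 cells and of Klb in the interaction held under each alternative run. The turned values were small. Fgfr1 with retinoic acid in scrambled cells became 0.12 with median centring, 0.13 without ESC scrambled replicate 2 and 0.12 without RA scrambled replicate 1 (-0.25 to 0.13 with 1 array left out), and Fgfr4 there became 0.03 with cyclic loess, 0.18 with median centring, 0.16 without ESC scrambled replicate 1 and 0.02 without RA scrambled replicate 1 (-0.16 to 0.16). Fgfr2 in ESC KD1 became 0.02 without ESC scrambled replicate 2 (-0.84 to 0.02), Fgfr3 and Fgfr4 in ESC KD2 became -0.03 and -0.04 without KD2 replicate 1 (-0.03 to 0.75 and -0.04 to 0.40), and Fgfr3 in KD2 against KD1 became 0.12 without KD2 replicate 2 (-0.66 to 0.12).

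Counts of called members moved as follows, with the count over all tested genes in brackets where it was kept. Fits with 1 array left out are not counted here, because many leave 1 array in a group. Retinoic acid in scrambled cells (3 called, and 5079 of all genes) gave 1 with RA KD1 replicates 1 and 2 only (4483 of all genes). It gave 0 at an adjusted p under 0.01 and 0 with a fold of at least 2. The interaction (3, and 1024 of all genes) gave 1 with RA KD1 replicates 1 and 2 only (569), 1 with the replicate block (447) and 1 at 0.01. ESC KD1 (1, and 301 of all genes) gave 2 with array weights (1148), 0 with the block (34) and 0 at 0.01. ESC KD2 (1, and 1302 of all genes) gave 0 with array weights (6) and 0 with only the compared arrays, where 0 of all genes were called. KD2 against KD1 (2, and 351 of all genes) gave 1 with cyclic loess (155), 1 with median centring (162), 0 with the block (29) and 0 at 0.01. It gave 0 with array weights and 0 with only the compared arrays. In both of these fits 0 of all genes were called, so no member could be. The causes were not tested. Same-numbered arrays of different groups had correlations of -0.183 to 0.243 in their deviations, over 0.1 in 1 of 10 group pairs. That pair was ESC KD1 with ESC scrambled (0.243), so whether the numbers pair samples there is not settled. Klb in this comparison had a limma adjusted p of 0.0524 with the replicate block, against 0.0185 without it. The block is only an alternative. Replicates 3 and 4 exist only in RA KD1, so under the block RA KD1 changes rest on replicates 1 and 2, as in the fit of those alone. Klb is dim outside RA KD1 and ESC KD1, which limits its order among the other groups.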

Other observations

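In undifferentiated KD2 cells, with the doubt about the array labelled KD2 replicate 1, genes of the pathway lists were called in both directions against scrambled cells, where 2.88% of all genes were called higher and 7.15% lower. Of 20 tested heparan sulfate genes 0 were higher and 5 lower, with a median log2 change of -0.48 where all genes had -0.02, led by Sulf1 (-2.23) and the glypican gene Gpc3 (-2.09). Of 8 co-receptors and partners 0 were higher and 3 lower, led by Cdh2 (-2.68), and of 15 adaptors and Ras-ERK genes 0 were higher and 0 lower. The splicing regulators Esrp1 (-1.46) and Esrp2 (-1.16), of 4 tested, were lower. Of 12 feedback and output genes of ERK 3 were higher, led by Spry4 (2.23), and 2 lower, led by Dusp4 (-1.70), with a median of 0.50. All 7 genes named here lost their call with array weights (limma adjusted p 0.0742 to 0.578) and with only the compared arrays (0.176 to 0.461). Calls over all genes fell to 6 with array weights and to 0 with only the compared arrays, against 1302. Dusp4 lost its call in 10 of 20 alternatives and had a change of -0.82 when KD2 replicate 1 was left out and of -2.58 when KD2 replicate 2 was.

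Esrp1 had log2 changes with retinoic acid of -1.25 in KD1 and -3.30 in scrambled cells and an interaction of 2.05 (limma adjusted p = 0.00857). That call was lost without ESC KD1 replicate 1 (1.73, adjusted p = 0.0512) and without RA scrambled replicate 2 (1.78, 0.0556).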
